A study of Mus musculus with 2 samples.

Results

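The glypicans and syndecans, the 2 families of heparan sulfate proteoglycans anchored in the cell membrane, and the heparin-binding growth factors midkine and pleiotrophin were followed in the mouse mammary gland. The 10 genes were taken by symbol from gene tables of 21113 genes: Ptn (pleiotrophin), Mdk (midkine), 4 glypican genes (Gpc1, Gpc3, Gpc4 and Gpc6) and 4 syndecan genes (Sdc1 to Sdc4). They were chosen with their values in view, so every difference below describes these libraries and none was tested. The RNA was polyadenylated RNA of the mammary gland, taken from C57BL/6 mice in postnatal week 6. There was 1 wild-type library and 1 from a gland homozygous for Mir212/132 ILN, in which an IRES-LacZ-Neo cassette is inserted into the locus of miR-212 and miR-132. The number of animals behind each sample is not given in the sources at hand. With 1 library per genotype no difference has a replicate check, and each ratio carries only a 95% interval for counting error.

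A glypican is tied to the outer face of the membrane by a lipid anchor, whereas a syndecan crosses the membrane and has a short cytoplasmic tail. Both carry heparan sulfate, a sulfated sugar chain that holds growth factors such as FGF, Wnt and hedgehog proteins near their receptors. Pleiotrophin and midkine are small, related secreted proteins that bind these chains and sulfated partners such as syndecans and receptor-type tyrosine phosphatases. In the mammary gland, ducts grow into a fat pad rich in stroma at puberty, and syndecan-1 is best known from epithelial cells and from plasma cells.

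The 3p mature microRNAs of the disrupted locus are shown because the cassette sits in their locus. Their sequences are from RefSeq (build GRCm38.p6), with the seed, bases 2 to 8, in capitals.
miR-132-3p (chr11:75173723-75173744, plus strand): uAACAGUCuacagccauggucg
miR-212-3p (chr11:75173443-75173464, plus strand): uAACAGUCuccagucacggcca
Both share the seed AACAGUC. Its complement, GACTGTT, was searched on the sense strand of the longest 3′ untranslated region annotated for each gene in GENCODE M21. None of the 10 genes held it, in regions from 285 bases (Mdk) to 3510 bases (Sdc3). Among 11305 measured genes that could be searched, 12.6% held at least 1 match. The search says only that these letters are not in these regions, and no other seed was searched.

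Pleiotrophin, midkine and glypican-3 were lower in the ILN/ILN library by 3-fold or more, syndecan-1, syndecan-3 and syndecan-4 were lower by under 1.5-fold, and syndecan-2, glypican-1, glypican-4 and glypican-6 were close to equal. All 10 genes were measured, meaning a deposited value of at least 1 in either library. At a threshold of 1.5-fold in fragments scaled by the library totals, 3 of the 10 were lower, 0 were higher and 7 were within it. Over the 11523 measured genes with a fragment ratio, 7.59% were at least 1.5-fold lower and 2.85% at least 1.5-fold higher. At 2-fold the same 3 genes were lower and none was higher, beside 3.36% of all measured genes lower and 0.781% higher. Since the genes were chosen on this comparison, nothing is read from their share. Their median log2 ratio (ILN/ILN over wild type) was -0.42, and that of all measured genes was 0.02.

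**Figure D1:**
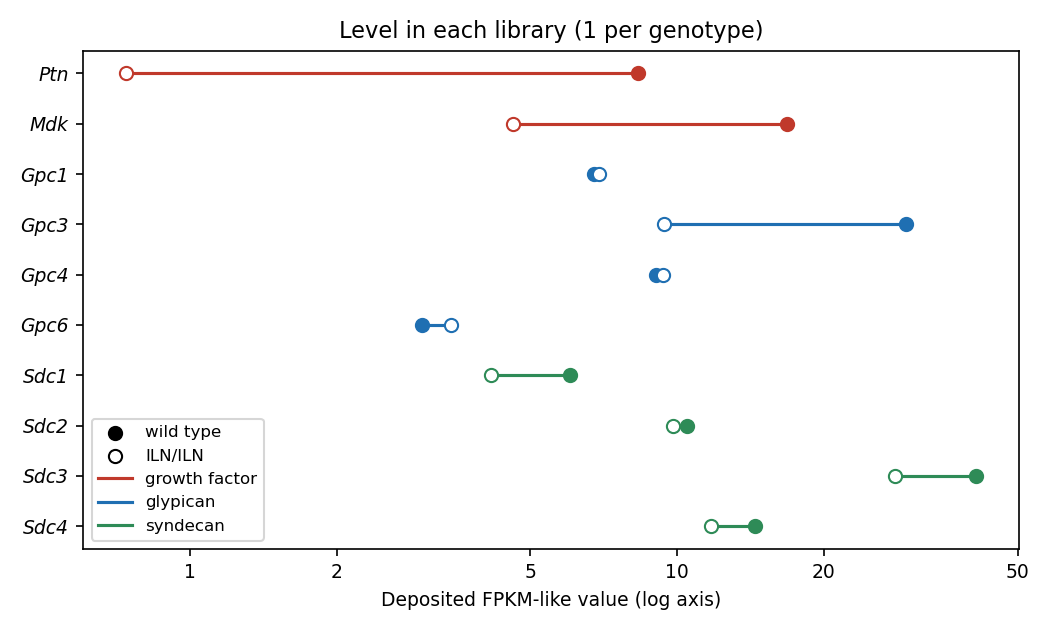
Deposited FPKM-like value on a log axis for each of the 10 genes, with a filled point for the wild-type and an open point for the ILN/ILN library, and the line joining them coloured by family. The long lines are those of Ptn (8.29 to 0.739), Mdk (16.8 to 4.6) and Gpc3 (29.4 to 9.38), while the points of Gpc1 and Gpc4 nearly coincide.

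The growth factor genes stood farthest apart between the libraries. Ptn encodes pleiotrophin, a secreted cytokine that signals through the phosphatase receptor PTPRZ1 and other surface partners. Its deposited value, an FPKM-like level per gene length, was 8.29 in wild-type and 0.739 in ILN/ILN gland, from 784 and 65 fragments. The ILN/ILN library was thus 11.2-fold lower (8.71 to 14.7). Of the 11523 measured genes, 34 had a ratio at least as low as that of Ptn, which counts Ptn itself. In level, Ptn lay above 48.3% of the measured genes in the wild type and above 1.81% of them in ILN/ILN gland.

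Mdk encodes midkine, the closest relative of pleiotrophin. It was at 16.8 in wild-type and 4.6 in ILN/ILN gland, from 518 and 132 fragments. This is 3.65-fold lower (3.01 to 4.46), an interval for counting error that does not meet that of Ptn. The table gives Mdk 3 isoforms over a short measured length of 635 bases, and its value came from the gene-level estimate in both libraries. Together the pair summed to 25.1 in wild-type and 5.34 in ILN/ILN gland. Midkine made up 67.0% of that sum in the wild type and 86.2% in ILN/ILN gland, so the pair differed in proportion as well as in amount. In the RefSeq gene table Mdk overlaps 2 genes, Chrm4 and a predicted gene, neither of which was measured, and Ptn overlaps none.

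Among the glypicans the difference lay with Gpc3. This gene encodes glypican-3, a regulator of body growth that binds hedgehog and Wnt proteins and whose loss in people causes the Simpson-Golabi-Behmel overgrowth syndrome. Its value was 29.4 in wild-type and 9.38 in ILN/ILN gland, from 3141 and 932 fragments, or 3.14-fold lower (2.92 to 3.38). It was the second most abundant of the 10 genes in the wild type and the fourth in ILN/ILN gland. Of the measured genes, 1.397% had a ratio at least as low.

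Gpc4, which lies beside Gpc3 on the X chromosome with no other protein-coding gene listed between them, encodes a glypican that modulates FGF and BMP signalling. It was at 9.04 in wild-type and 9.36 in ILN/ILN gland, from 988 and 952 fragments. Its ratio of ILN/ILN over wild type was 1.03 (0.946 to 1.13), so the neighbours differed: one was lower by 3.14-fold while the interval of the other held equality. At 9.38 and 9.36, the levels of Gpc3 and Gpc4 were nearly the same in the ILN/ILN library, where in the wild-type library Gpc3 was far above Gpc4.

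Gpc1 encodes glypican-1, a co-receptor for FGF. It was at 6.76 and 6.90 in wild-type and ILN/ILN gland, with 1142 and 1084 fragments and a ratio of 1.02 (0.937 to 1.11). Gpc6, which encodes glypican-6, was at 3.00 and 3.44, with 957 and 1020 fragments. Its ratio of 1.14 (1.05 to 1.25) made it the only one of the 10 genes whose counting interval lay above 1. The table lists 2 isoforms for Gpc6 and its values came from the gene-level estimate. The remaining glypican genes were scarce: Gpc2 had 31 and 49 fragments and Gpc5 had 3 and 1, both below the measured level in each library.

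As a family the 4 glypicans summed to 48.2 in wild-type and 29.1 in ILN/ILN gland. Gpc3 accounted for 61.0% of the wild-type sum and 32.3% of the ILN/ILN sum. The share of Gpc4 was 18.7% in wild-type and 32.2% in ILN/ILN gland, that of Gpc1 14.02% and 23.7%, and that of Gpc6 6.22% and 11.8%. The wild-type gland was therefore dominated by 1 glypican transcript, and the ILN/ILN gland had Gpc3 and Gpc4 side by side.

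**Figure D2:**
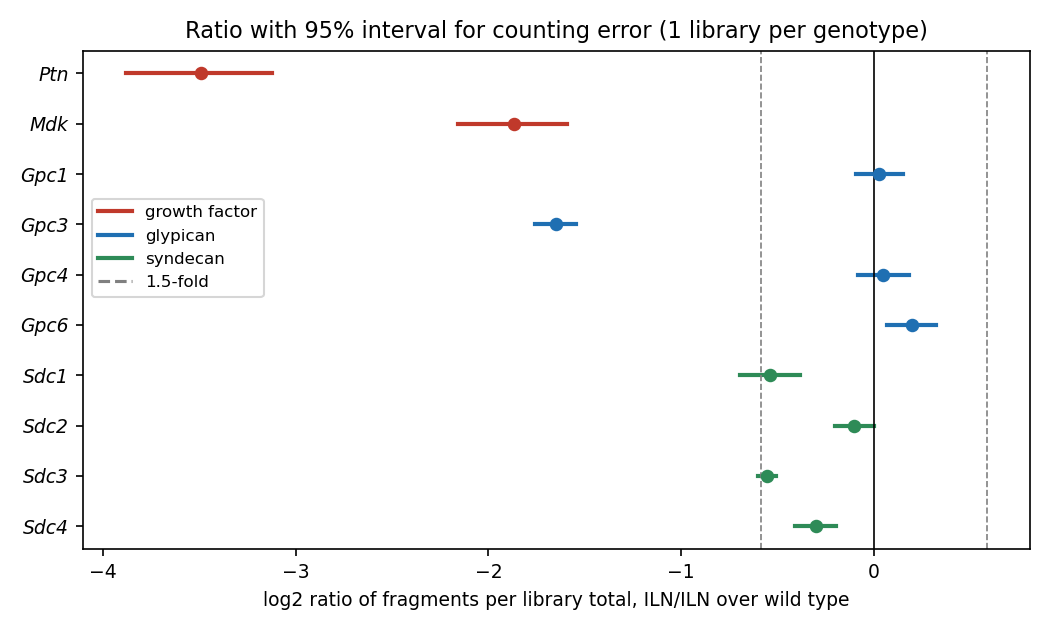
The log2 ratio of fragments scaled by library totals, ILN/ILN over wild type, with bars for the 95% interval of counting error, a solid line at equality and dashed lines at 1.5-fold. Ptn, Mdk and Gpc3 lie left of the dashed line with their whole intervals, whereas those of Sdc1 and Sdc3 cross it and the other 5 genes stay between the dashed lines.

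The syndecans differed less, and each of the 4 was lower in the ILN/ILN library in its fragment ratio. Sdc3, which encodes a syndecan known from nerve and muscle, was the most abundant of the 10 genes in both libraries. It was at 41.1 in wild-type and 28.0 in ILN/ILN gland, from 9776 and 6192 fragments, which is 1.47-fold lower (1.42 to 1.52). Sdc1, which encodes syndecan-1, also called CD138, was at 6.03 and 4.16, from 873 and 560 fragments, and was 1.45-fold lower (1.30 to 1.62). These genes were just short of the 1.5-fold threshold, with 8.12% of measured genes at a ratio at least as low as that of Sdc3 and 8.51% at least as low as that of Sdc1.

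Sdc4 encodes syndecan-4, which works with integrins at focal adhesions. It was at 14.5 and 11.7 in wild-type and ILN/ILN gland, with 1677 and 1266 fragments, a difference of 1.23-fold lower (1.15 to 1.33). Sdc2 encodes syndecan-2, a syndecan of mesenchymal cells, and was at 10.5 and 9.79, with 1651 and 1433 fragments. Its ratio was 0.932 (0.868 to 1.001), an interval that just holds equality. Summed, the syndecans were at 72.1 in wild-type and 53.7 in ILN/ILN gland. Their make-up was nearly kept: Sdc3 took 57.01% and 52.1%, Sdc4 20.1% and 21.9%, Sdc2 14.6% and 18.2% and Sdc1 8.36% and 7.74% of the sum.

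The order of levels in the wild-type library ran Sdc3, Gpc3, Mdk, Sdc4, Sdc2, Gpc4, Ptn, Gpc1, Sdc1 and Gpc6. In the ILN/ILN library it ran Sdc3, Sdc4, Sdc2, Gpc3, Gpc4, Gpc1, Mdk, Sdc1, Gpc6 and Ptn. With 1 library each, no spread over samples separates neighbours in these orders.

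**Figure D3:**
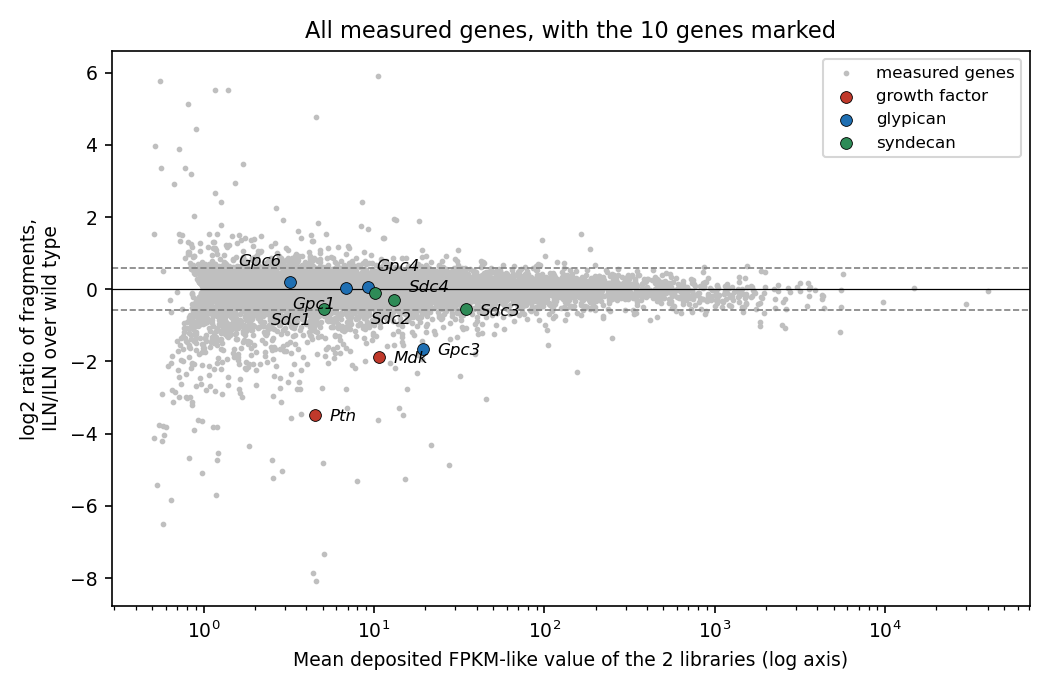
The log2 ratio of fragments against the mean deposited value of the 2 libraries on a log axis for the 11523 measured genes (grey), with the growth factor, glypican and syndecan genes coloured and dashed lines at 1.5-fold. Ptn (-3.49), Mdk (-1.87) and Gpc3 (-1.65) lie below the lower dashed line, and the other 7 lie between the dashed lines.

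Promoter sequences from 250 bases before to 50 after the annotated start were found in RefSeq (build GRCm38.p6) for 6 of the 10 genes. Those of Ptn and Gpc3 are shown as genes with lower values, and that of Gpc4 because this neighbour of Gpc3 was nearly equal. Capitals mark matches, on either strand, to the GC box (GGGCGG), the CCAAT box (CCAAT) and the TATA box (TATAAA).
Ptn (chr6:36810130-36810429, minus strand): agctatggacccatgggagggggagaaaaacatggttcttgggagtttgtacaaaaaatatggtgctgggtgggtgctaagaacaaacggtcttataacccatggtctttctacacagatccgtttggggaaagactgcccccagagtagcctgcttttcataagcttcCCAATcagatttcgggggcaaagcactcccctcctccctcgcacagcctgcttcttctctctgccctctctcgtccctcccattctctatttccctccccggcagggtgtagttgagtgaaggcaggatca
Gpc3 (chrX:52613925-52614224, minus strand): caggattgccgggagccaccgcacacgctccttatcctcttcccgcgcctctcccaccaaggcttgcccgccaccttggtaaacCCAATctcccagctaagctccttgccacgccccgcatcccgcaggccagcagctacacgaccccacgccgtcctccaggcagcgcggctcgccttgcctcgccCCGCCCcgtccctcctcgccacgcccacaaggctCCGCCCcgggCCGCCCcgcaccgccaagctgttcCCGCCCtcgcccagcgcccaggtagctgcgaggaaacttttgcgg
Gpc4 (chrX:52164874-52165173, minus strand): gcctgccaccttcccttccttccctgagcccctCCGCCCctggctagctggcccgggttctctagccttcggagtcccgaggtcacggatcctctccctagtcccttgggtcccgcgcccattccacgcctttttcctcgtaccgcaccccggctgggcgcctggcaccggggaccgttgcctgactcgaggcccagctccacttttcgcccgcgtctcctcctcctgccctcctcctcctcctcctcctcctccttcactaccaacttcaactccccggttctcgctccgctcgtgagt
The Ptn promoter held 1 CCAAT match, no GC box and 6 CG dinucleotides, fewer than the median of 7 over 32851 promoters of the same length. The Gpc3 promoter held 4 GC boxes, 1 CCAAT match and 30 CG dinucleotides, and the Gpc4 promoter 1 GC box and 22 CG dinucleotides. None of the 3 had the TATA letters. Of all 32851 promoters, 35.7% held a GC box, 37.4% a CCAAT match and 13.6% a TATA match. Genes with lower values thus included one promoter with fewer CG dinucleotides than the median and one with more. These matches describe letters, not binding sites.

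Genes that build and use heparan sulfate were largely even between the libraries. Over 6 lists of pathway genes, 62 were measured, of which 8 were at least 1.5-fold lower, 0 were higher and 54 were within 1.5-fold. The median log2 ratio was -0.01, close to the 0.02 of all measured genes. The 8 lower genes make 12.9% of those measured, beside 7.59% of all genes.

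Chain synthesis had 1 of 16 measured genes lower and 0 higher, with a median log2 ratio of 0.05. The lower one was Acpl2, also known as Pxylp1, a phosphatase that acts on the xylose of the linker to the core protein, at 1.59 in wild-type and 1.003 in ILN/ILN gland. Extl3, a glycosyltransferase that starts the heparan sulfate chain, was at 25.8 and 36.1, a ratio of 1.39 (1.35 to 1.44). Papss2, which makes the sulfate donor PAPS, was at 15.5 and 21.0, a ratio of 1.36 (1.29 to 1.43), while B3gat3, which completes the linker, was at 21.6 and 16.7.

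Of 8 measured genes that modify the chain, 2 were lower, and both encode 3-O-sulfotransferases of low level. Hs3st3b1 had 282 and 125 fragments in wild-type and ILN/ILN gland, and Hs3st6 had 82 and 30. Hs3st1, of the same class, was at 4.54 and 3.48. Glce, the epimerase that converts glucuronic to iduronic acid, was at 2.66 and 3.35.

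Enzymes that trim the chains or shed the core proteins had 3 of 10 measured genes lower and 0 higher. Hpse, which encodes heparanase, the endoglycosidase that cuts heparan sulfate, was at 7.57 in wild-type and 4.40 in ILN/ILN gland, with 1106 and 598 fragments and a ratio of 0.581 (0.525 to 0.642). Mmp14, a membrane metalloproteinase that can cleave syndecan-1, was at 85.9 and 46.9. Mmp9, a gelatinase, was at 19.1 and 12.3, whereas Adamts1, another secreted metalloproteinase, was at 3.47 and 4.40.

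Of 11 cytoplasmic partners of the syndecans 1 was lower. This was Ezr, which encodes ezrin, a linker of membrane proteins to actin that is abundant in epithelium, at 9.39 in wild-type and 4.39 in ILN/ILN gland (ratio 0.467; 0.423 to 0.515). Gipc1, an adaptor with a PDZ domain, was at 15.6 and 11.8, and Cask, a scaffold kinase that binds syndecan tails, at 2.14 and 2.59. Sdcbp2, a relative of syntenin, had 98 and 69 fragments.

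None of 10 measured receptors and binding partners of midkine and pleiotrophin passed 1.5-fold in either direction, and their median log2 ratio was 0.25. Ptprs, a receptor phosphatase that binds heparan sulfate, was at 5.05 in wild-type and 7.42 in ILN/ILN gland, a ratio of 1.47 (1.38 to 1.57). Ptprb, the phosphatase of vascular endothelium, was at 5.51 and 7.76, a ratio of 1.41 (1.34 to 1.47). The integrin genes Itga6, at 5.57 and 7.50, and Itga4, at 1.49 and 1.07, lay in opposite directions. The best known pleiotrophin receptors were scarce and were looked up after the values were seen. Ptprz1 had 6 and 12 fragments. Alk, a kinase proposed as a receptor of both factors, had 0 in both libraries, which does not show that it was absent.

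Other heparan sulfate or sulfated proteoglycan core proteins and co-receptors had 1 of 7 measured genes lower. Srgn, which encodes serglycin of blood cell granules, was at 82.1 in wild-type and 53.3 in ILN/ILN gland. Col18a1, a basement membrane collagen with heparan sulfate, was at 17.1 and 11.8, a ratio of 0.690 (0.656 to 0.725). Nrp1, a co-receptor of VEGF and semaphorins, was at 27.5 and 31.1. Cd44 was at 5.84 and 5.98 in deposited value but had 1064 and 770 fragments, because its value came from the isoform-derived estimate in both libraries.

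Markers of several cell types also differed between the libraries, in a tissue where fewer cells of a type and less RNA per cell cannot be told apart. All 7 measured luminal epithelium markers were lower by 2-fold or more in ILN/ILN gland, and the list of 11 summed to 41.3 in wild-type and 1.06 in ILN/ILN gland. Krt8, a luminal keratin, had 742 and 0 fragments, which is 230-fold lower with 3 fragments in place of 0 and at least 187-fold lower by the 95% interval used for the other ratios. Krt18 had 583 and 2 fragments and Krt19 had 1029 and 24. Of the 9 basal and skin epithelium markers only 2 were measured, of which 1 was lower (sums over the list 9.58 and 3.86). The lower one was Sfn, an epithelial 14-3-3 protein, at 2.75 and 1.005, while Trp63, the basal transcription factor p63, was at 3.50 and 2.79 with a ratio whose interval held equality (0.796; 0.616 to 1.03). In ILN/ILN gland 6 of the 9 were at 0, all of them below the measured level in wild type as well. Among these, Krt5 had 78 and Krt14 had 62 wild-type fragments, whereas Dsc3, Krt15 and Dsg3 had only 16, 3 and 1. The luminal keratins that define mammary epithelium were thus at or near 0 in the library labelled ILN/ILN.

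Lymphocyte markers were lower too, with all 11 measured genes at least 1.5-fold lower and sums of 237 in wild-type and 59.6 in ILN/ILN gland. Cd79a, part of the B cell antigen receptor, stood at 80.6 and 9.89. Of 10 macrophage markers 4 were lower and 6 were within 1.5-fold (sums 2075 and 1341). All 10 were below equality, with a median log2 ratio of -0.53. The complement gene C1qc, with the lowest ratio of the listed C1q genes, was at 537 and 295. Plasma cell markers, which bear on syndecan-1, had 3 of 6 lower (sums 201.0 and 198.7). In direction, 4 of the 6 were below equality and 2 above it, with a median log2 ratio of -0.60. The sum was carried by Xbp1, at 175 and 176, a gene that many cell types express. Igj, the joining chain of antibodies, had the lowest ratio of the 6 and was at 5.81 and 2.54.

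Markers of stroma, fat and blood endothelium were within 1.5-fold, though not all were equal. Blood endothelial markers had 7 above equality and 2 below, with a median log2 ratio of 0.27. Fibroblast markers had 6 above and 4 below (median 0.06), and white adipocyte markers 6 above and 3 below (median 0.10). None of 10 fibroblast markers (sums 3731 and 3750), 9 white adipocyte markers (sums 86071 and 77014) and 9 blood endothelial markers (sums 148 and 176) passed 1.5-fold. Dcn, the fibroblast proteoglycan decorin, was at 743 and 795, and Adipoq, the adipocyte hormone adiponectin, at 3534 and 3580. Schwann cell and nerve markers had 3 of 8 lower (sums 113 and 86.9), with the myelin gene Mbp at 25.8 and 31.5. The part of each of these cell types in the values of Ptn, Mdk, Gpc3 and the syndecans was not tested.

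**Figure D4:**
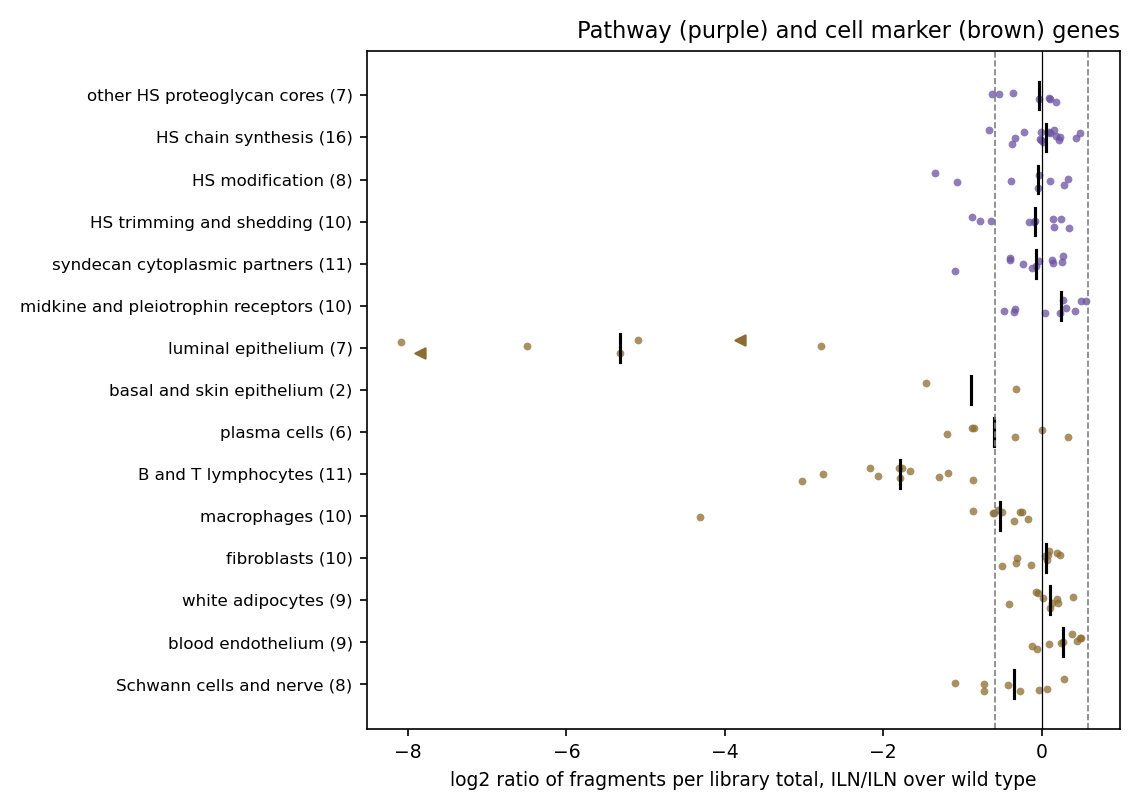
The log2 ratio of fragments, ILN/ILN over wild type, for each measured gene of 6 pathway lists (purple; HS is heparan sulfate) and 9 cell marker lists (brown), with the number measured in parentheses, the median as a black bar and dashed lines at 1.5-fold. Triangles mark genes at 0 fragments in the ILN/ILN library, drawn with 3 fragments in place of 0. The luminal (median -5.32) and lymphocyte (median -1.79) markers lie far left of the pathway lists.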

How the data were processed

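Bowtie 0.12.3, TopHat 1.4.1, bedtools and the mm9 build appear in the submitters' processing notes without their roles. The maker of the gene tables, and whether strand was used in counting, are not given in the sources at hand. Per the file headers, the authors deposited an FPKM-like value per gene, its log2(value + 1), and a signal per kilobase as an original, a derived and a final estimate. The final signal was the larger estimate in all 21113 rows, and the FPKM-like value is this signal over 1 constant per library. The deposited original signal times gene length was whole, within 0.01, in 100% of genes above 0 and is called fragments. For all 10 genes the original estimate was used. Fragments summed to 46133338 (wild type) and 42953129 (ILN/ILN).

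Ratios are fragments scaled by these sums, with exact conditional (Clopper-Pearson) 95% intervals, which cover counting error only, since sequenced fragments are not independent molecules. Genes at 0 entered medians at 3 fragments. With 1 library per genotype no test was made. The 10 genes and all lists were chosen with earlier results of these data known. Named pathway genes are up to 4 per list with the largest absolute log2 ratio (at least 50 fragments in all), and named markers up to 3 per list with the highest level; Krt5, Krt14, Krt15, Dsc3, Dsg3, Ptprz1 and Alk were added after their values were seen. The value of 1 gene that this rule names is not reported here. In data simulated with counting (Poisson) error only (11499 genes), all 100 genes made 4-fold lower were recovered at 1.5-fold. Of 11299 unchanged genes 23 passed it. The simulation held no variation between animals or libraries, so it checks the calculation and gives no error rate for the real libraries. Alternatives covered the scaling, the estimate, the pseudocount, the minimum and the fold threshold. Python 3.11.15, scipy 1.17.1 and pandas 2.3.3 were used.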

Additional observations from a re-analysis of the deposited data

How the results depend on the processing

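The count of 3 of the 10 genes lower and 0 higher was the same under each alternative run: 2 other scalings, the deposited value with no pseudocount or with 1 or 5 added, a minimum value of 5 or none, and a 2-fold threshold. Of 50 alternative log2 ratios of single genes, 44 stayed inside the counting interval, 6 left it and 0 reversed a gene past 1.5-fold. All 6 came from a pseudocount, which pulls ratios toward 0: Ptn ranged from -3.52 to -1.21, Mdk from -1.90 to -1.18 and Gpc3 from -1.68 to -1.26. Gpc1, Gpc4 and Gpc6 were above 0 and the syndecans below 0 under each. The number of all measured genes past 1.5-fold was 1203 and became 477 at 2-fold, 290 with 5 added to the value, 530 at a minimum of 5 and 3257 with none. Of 240 alternative list counts 26 moved by over 1.5 times. The lower 3-O-sulfotransferases, Acpl2 and the low epithelial markers depended on the minimum or pseudocount. Lower trimming and shedding genes went from 3 to 0 at 2-fold and to 1 with 5 added. Lower macrophage markers went from 4 to 1, and Schwann cell markers from 3 to 1, at 2-fold. Lower plasma cell markers went from 3 to 1 at 2-fold and to 0 with 5 added. The 1 lower core protein, Srgn, was not called in either setting. Depth limits Ptn most, with 65 ILN/ILN fragments. No paired analysis was possible because each genotype had 1 library and no test was made.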
